A study of Mus musculus with 15 samples.

Results

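The genes described here are 10 heat shock chaperones, Hspa1a, Hspa1b, Hspa8, Hsph1, Hspb1, Hspe1, Hspd1, Hsp90aa1, Dnajb1 and Hspa4l, measured in mouse lung after a week of dietary permethrin, a pyrethroid insecticide. They were found as all array probes whose RefSeq identifier maps to one of these symbols. This gave 21 of the 56605 probes on the array, and all 21 passed the filter on dim signal, so that all 10 genes were among the 34401 genes tested, of which 19289 carried a symbol. Female mice of the outbred stock Crlj:CD1(ICR), 11 weeks old per the labels, ate a powdered diet containing 0 (control), 20, 500, 2500 or 5000 ppm permethrin for 7 days. Each diet had 3 mice, and total RNA of each mouse's lung was read on a 1-colour Agilent array of its own. No group carried a transgene or another agent, and all 5 groups shared the powdered diet and the stock. Levels are log2 signals set so that each array's 75th percentile is 0, and they are compared between mice for a probe, never between probes.

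Chaperones bind unfolded or partly folded proteins and keep them from aggregating. The Hsp70 proteins work in a cycle of ATP hydrolysis that J-domain proteins (Hsp40) start and that nucleotide exchange factors such as the Hsp110 proteins end; Hsp90 acts later, on clients such as kinases and steroid receptors, and the Hsp60 and Hsp10 proteins form a folding chamber in mitochondria. When unfolded proteins accumulate, the transcription factor HSF1 forms trimers and binds heat shock elements, which are inverted repeats of a short unit, in the promoters of many of these genes, and the inducible Hsp70 genes are its best known targets.

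The promoters are shown because several of these genes varied together from mouse to mouse, as described below. Windows of 250 bases before to 50 after a start site were matched in RefSeq (GRCm38.p6) for 8 of the 10 members, as 11 windows. They were searched on both strands for a pair of facing heat shock units, GAANNTTC or TTCNNGAA, each of which is its own reverse complement. One or the other was in 7 of the 11 windows, of 6 members, against 15.1% of all 32851 windows in the table. A run of 3 units (GAA, NN, TTC, NN, GAA, or the reverse complement TTC, NN, GAA, NN, TTC), in which both pairs overlap by a unit, was in 4 of the 11 windows, of Hsph1, Hspe1 and Hspd1, against 0.603% of all windows. The Hsph1 windows overlap each other, and the Hspe1 window overlaps one of Hspd1, so these are not independent counts. No pair was found in the windows of Hspa4l or Dnajb1. The first set below gives the 250 bases before the start of Hspa1a (chr17:34972157-34972406, minus strand) and Hspa1b (chr17:34959239-34959488, minus strand), shown because they are nearly the same sequence, with the pair of units in capitals.
Hspa1a: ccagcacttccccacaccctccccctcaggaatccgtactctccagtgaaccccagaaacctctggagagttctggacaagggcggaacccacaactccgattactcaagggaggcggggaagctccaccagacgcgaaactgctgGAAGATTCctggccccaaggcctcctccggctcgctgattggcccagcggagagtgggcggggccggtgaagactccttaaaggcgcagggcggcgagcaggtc
Hspa1b: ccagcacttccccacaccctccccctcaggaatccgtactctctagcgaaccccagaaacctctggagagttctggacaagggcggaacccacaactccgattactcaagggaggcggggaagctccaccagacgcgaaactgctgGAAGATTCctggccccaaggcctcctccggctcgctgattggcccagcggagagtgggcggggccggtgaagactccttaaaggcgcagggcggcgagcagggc
Over the whole window of 300 bases these promoters had 296 identical bases (98.7%). The differences, Hspa1a's base first and counted from 1 at the 5′ end of the window, were C44T, T47C, T249G and C276T, and none of them lies in the pair of units.

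The second set gives 60 bases around the units of the other members that hold them, again 5′ to 3′ on the gene's own strand, with every unit pair or run in capitals. Their positions are chr5:149636337-149636396 (minus strand) for Hsph1, chr5:135887789-135887848 (plus strand) for Hspb1, and chr1:55088038-55088097 for Hspe1 (plus strand) and for Hspd1 (minus strand).
Hsph1: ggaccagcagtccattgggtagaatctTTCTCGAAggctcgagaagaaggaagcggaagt
Hspb1: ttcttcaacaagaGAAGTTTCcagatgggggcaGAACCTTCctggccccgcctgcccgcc
Hspe1: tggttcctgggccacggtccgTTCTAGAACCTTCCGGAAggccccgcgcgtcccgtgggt
Hspd1: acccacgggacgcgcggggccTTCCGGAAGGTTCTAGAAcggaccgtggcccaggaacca
The Hspe1 and Hspd1 stretches are the 2 strands of the same DNA: these genes lie head to head, their windows overlap by 285 bases, and the run of units at chr1:55088059-55088076 is in both. The run of 3 units of Hsph1 lies after its start site and is not shown. A match to these letters is a description of the sequence only, and binding was not measured.

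Defining markers of the labelled tissue were measured on every array, apart from Sftpb, which has no value in control mouse 1. The surfactant genes Sftpc and Sftpb measured 9.11 to 9.61 and 7.19 to 7.89, the alveolar type 1 marker Ager 8.18 to 9.07, the club cell gene Scgb1a1 9.17 to 10.1, the ciliated cell gene Foxj1 0.68 to 1.88 and the endothelial gene Cldn5 5.56 to 6.29. Between 72.0% and 87.6% of spots were well above background, and no spot was saturated. The first principal component (36.5% of the variance over genes) set apart 500 ppm mouse 3 and, less far, 2500 ppm mouse 3, which are also the arrays whose header gives an extraction status of 1 and not 0. The second (17.9%) set apart control mouse 1 and 20 ppm mouse 1. Arrays whose file headers give the same scan date are called a slide here, a group by scan date that need not be 1 physical slide. Slide 1 held the control and 20 ppm mice and 500 ppm mice 1 and 2 (8 arrays), and slide 2 held 500 ppm mouse 3 and the 2500 and 5000 ppm mice (7 arrays), so that slide and the 2 high doses cannot be told apart except through the 500 ppm mice. In RNA from whole lung, fewer cells of a type and less RNA per cell cannot be told apart.

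None of the 10 chaperones passed the test at any dose. The limma test, adjusted over all genes at a threshold of 0.05, called 0 of 10 members at 20 ppm (0% of all genes), 0 at 500 ppm (0%), 0 at 2500 ppm (0%) and 0 at 5000 ppm, where 14 genes or 0.0407% of all genes were called. It called 0 of 10 for 5000 over 2500 ppm (0%), 0 for the trend over dose ranks, where 49 genes or 0.142% were called, and 0 for any difference among the 5 diets (0.0407%). At an unadjusted p under 0.05 the counts of members were 0, 0, 1 and 2 at the 4 doses from low to high, 0 for 5000 over 2500 ppm, 5 for the trend and 2 for any difference, against 1.48%, 2.84%, 8.49%, 5.14%, 5.04%, 9.22% and 5.36% of all genes. The lowest adjusted p of a member in these comparisons was 0.325, for Hspa4l on the trend. All comparisons with the control diet share the same 3 control arrays.

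The inducible Hsp70 genes Hspa1a and Hspa1b encode nearly identical proteins that refold damaged proteins in cytosol and nucleus. On the probes used they had the widest spread of the 10 genes, and they followed no order of dose. Hspa1a measured 4.63, 4.07 and 2.39 in the control mice, 4.41, 3.13 and 2.58 at 20 ppm, 2.92, 2.77 and 2.76 at 500 ppm, 4.81, 2.95 and 4.55 at 2500 ppm and 2.25, 3.18 and 4.62 at 5000 ppm. The highest and lowest mice differed 5.90-fold, high and low mice stood side by side in every diet but 500 ppm, and no diet separated from control. Hspa1b measured 2.79, 3.15 and 1.84 in the control mice, 3.37, 1.58 and 2.02 at 20 ppm, 1.47, 1.996 and 2.28 at 500 ppm, 3.97, 2.33 and 3.103 at 2500 ppm and 1.65, 1.48 and 4.27 at 5000 ppm. Its mice differed 6.96-fold, and 5000 ppm mouse 3 was the highest of all while the other mice on its diet were among the lowest. The SD within diets was 0.97 for Hspa1a and 0.96 for Hspa1b, larger than for 97.3% and 97.1% of all genes tested, against a median of 0.318. At 5000 ppm the log2 fold over control was -0.35 ± 0.71 for Hspa1a (SE, 95% interval -1.89 to 1.20). For Hspa1b it was -0.13 ± 0.71 (-1.66 to 1.40), and the 95% intervals span 0.27-fold to 2.30-fold for Hspa1a and 0.32-fold to 2.65-fold for Hspa1b. Each gene has 1 probe here, and because the transcripts are nearly identical it is uncertain how far either probe reads the other gene.

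The Hsp110 protein gene Hsph1, whose product exchanges the nucleotide of Hsp70, followed them from mouse to mouse. It measured 2.99, 3.01 and 2.28 in the control mice, 3.54, 2.06 and 2.26 at 20 ppm, 2.04, 2.20 and 2.39 at 500 ppm, 3.21, 2.50 and 3.13 at 2500 ppm and 2.51, 2.37 and 3.51 at 5000 ppm. The highest mice were 20 ppm mouse 1 and 5000 ppm mouse 3, and every treated diet overlapped control. Its log2 fold at 5000 ppm was 0.04 ± 0.40 (SE), and its within-diet SD of 0.53 was above that of 74.7% of genes. Its second probe for the same transcript, A_55_P2003513, followed it closely (r = 0.96, Spearman rho = 0.94 over 15 mice, permutation p = 1e-05 for each, the smallest these permutations can give; adjusted 3.7e-05 for r over 11 probe pairs). That probe's log2 fold at 5000 ppm was -0.25 ± 0.44, against 0.42 ± 0.38 for the dimmer A_55_P2931347, so the probes do not share a direction.

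Hspa4l, another Hsp110-related gene, was one of the few members whose treated mice separated from control. It measured 2.14, 2.71 and 2.55 in the control mice, 2.40, 2.69 and 2.65 at 20 ppm, 2.36, 2.52 and 2.71 at 500 ppm, 3.04, 2.73 and 3.12 at 2500 ppm and 2.84, 2.85 and 3.37 at 5000 ppm. All 3 mice at 2500 ppm and all 3 at 5000 ppm were above all 3 controls, by a small margin at 2500 ppm, while the lower doses overlapped control. Of all genes, 8.83% lay wholly above control at 2500 ppm and 12.9% at 5000 ppm. The means were 3.02 ± 0.30 at 5000 ppm and 2.46 ± 0.29 in control mice (SD, n = 3 each), a log2 fold of 0.56 ± 0.20 (SE; 1.47-fold, 95% interval 1.09 to 1.99; limma adjusted p = 0.888). At 2500 ppm the mean was 2.96 ± 0.21 and the log2 fold was 0.50 ± 0.20 (limma adjusted p = 0.494). Its other probes gave log2 folds of 0.54 ± 0.21 and 0.31 ± 0.22 at 5000 ppm, the same direction. With each array left out in turn, the log2 fold of the probe used ranged from 0.38 to 0.68 at 5000 ppm.

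The constitutive Hsp70 gene Hspa8, a housekeeping chaperone that also serves clathrin uncoating and chaperone-mediated autophagy, was the steadiest member on the probe used. The probe used, A_55_P2069721, measured 6.54, 6.50 and 6.21 in the control mice, 6.50, 6.47 and 6.34 at 20 ppm, 6.06, 6.24 and 6.20 at 500 ppm, 6.49, 6.21 and 6.50 at 2500 ppm and 6.51, 6.26 and 6.84 at 5000 ppm. All mice lay within 1.72-fold, only 5000 ppm mouse 3 stood above the rest, and every diet overlapped control. The log2 fold at 5000 ppm was 0.12 ± 0.17 (SE, 95% interval -0.24 to 0.48), and the within-diet SD of 0.18 exceeded that of 14.3% of genes. Its other probes were less steady, with within-diet SDs of 0.35 for A_66_P137434, 1.11 for A_55_P2909278 and 1.08 for A_55_P2910890.

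Dnajb1, the J-domain partner of inducible Hsp70, followed no order of dose. It measured 5.35, 5.53 and 4.98 in the control mice, 5.48, 4.98 and 4.50 at 20 ppm, 5.05, 5.003 and 4.66 at 500 ppm, 5.79, 5.11 and 4.75 at 2500 ppm and 5.11, 4.86 and 5.10 at 5000 ppm. The highest mouse was on 2500 ppm and the lowest on 20 ppm, and all diets overlapped control. Its log2 fold was below 0 at every dose, -0.30 ± 0.28, -0.38 ± 0.28, -0.07 ± 0.28 and -0.26 ± 0.28 from low to high dose, all within the spread between mice, but with the slide as a fixed block it was above 0 at 2500 ppm (0.30) and 5000 ppm (0.10).

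**Figure D1:**
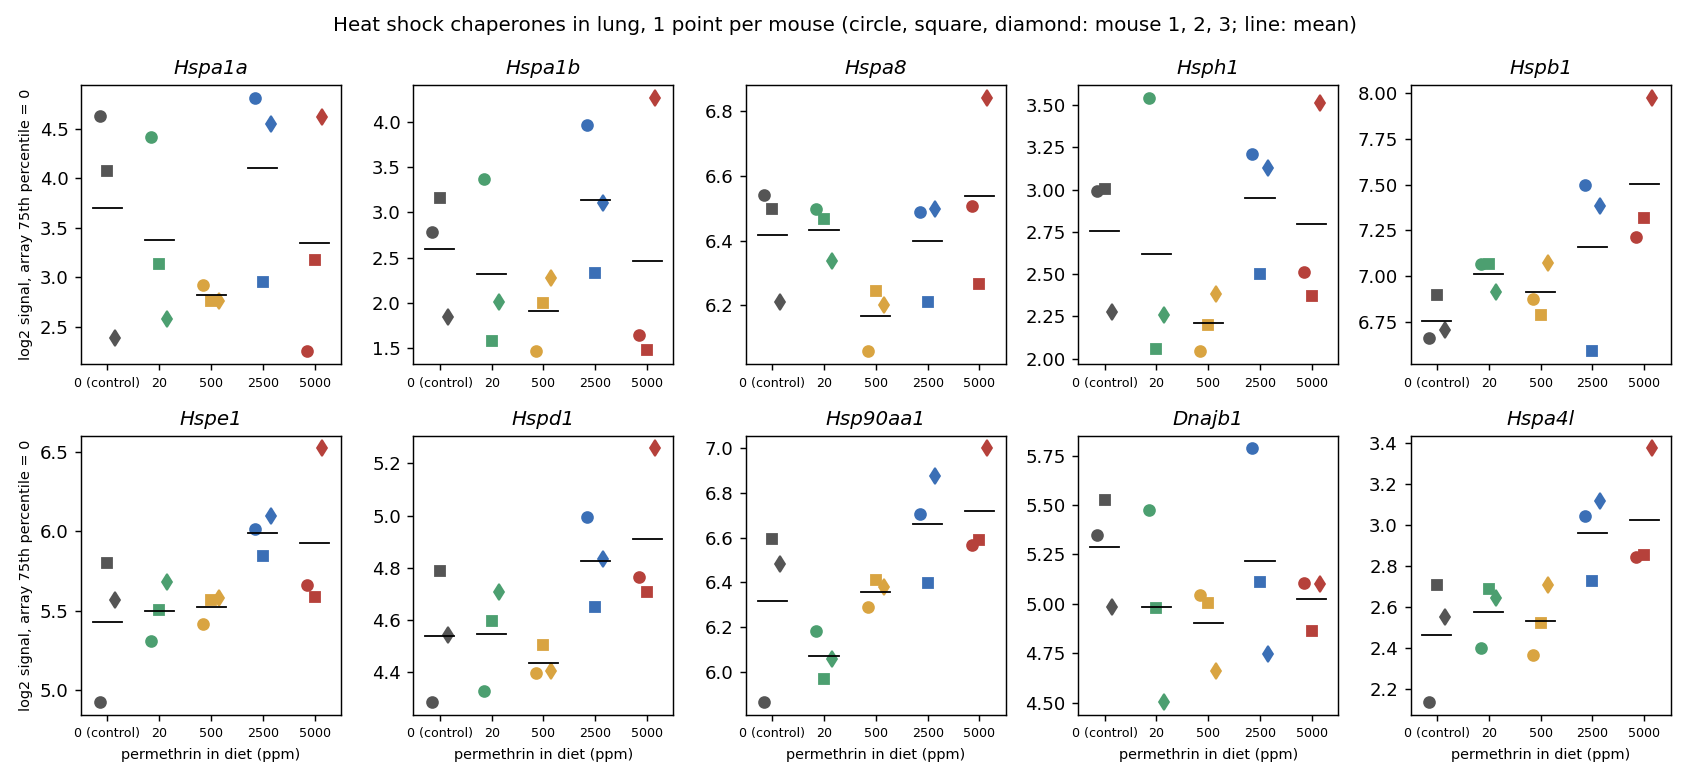
Level of each of the 10 chaperone genes (log2 signal, array 75th percentile at 0; scales differ between panels) in each of the 15 mice, by permethrin in the diet in ppm, with circle, square and diamond for mouse 1, 2 and 3 and a line at the mean of 3 mice. Hspa1a and Hspa1b spread 5.90-fold and 6.96-fold over the mice, while Hspb1 and Hspa4l at 5000 ppm lie above all 3 controls, as do 12.9% of all genes.

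The small heat shock protein gene Hspb1, whose product holds unfolded proteins without ATP and steadies actin filaments, had the largest log2 fold of the members at 5000 ppm. It measured 6.66, 6.90 and 6.71 in the control mice, 7.06, 7.07 and 6.91 at 20 ppm, 6.88, 6.79 and 7.07 at 500 ppm, 7.50, 6.59 and 7.38 at 2500 ppm and 7.21, 7.32 and 7.98 at 5000 ppm. The 3 mice at 5000 ppm and, by a small margin, the 3 at 20 ppm were above all controls, whereas 2500 ppm mouse 2 was the lowest of the 15. Over all genes, 12.9% lay wholly above control at 5000 ppm and 1.5% at 20 ppm. The means were 7.50 ± 0.41 at 5000 ppm and 6.76 ± 0.13 in control mice (SD, n = 3 each). The log2 fold was 0.75 ± 0.24 (SE; 1.68-fold, 95% interval 1.16 to 2.42), with a limma p of 0.00964 before and 0.818 after adjustment over all genes. Without 5000 ppm mouse 3 it was 0.51 ± 0.24. Levels of cell type markers also differed. Log2 of the summed signal of the 5 smooth muscle markers was 5.42 to 6.38 at 5000 ppm, against 4.61 to 4.97 in control mice. Of these, 3 of 5 had an unadjusted p under 0.05, against 5.14% of all genes. Club (10.82 to 10.96 against 10.41 to 10.62), alveolar type 2 (10.03 to 10.07 against 9.95 to 9.98, without Sftpb) and erythroid markers (10.48 to 10.64 against 10.18 to 10.47) lay wholly above control too. The 6 ciliated cell markers (7.21 to 7.78 against 6.75 to 7.32) and the remaining lists overlapped control. Single markers were not all higher. A log2 fold above 0 was seen for 3 of 5 smooth muscle, 5 of 6 ciliated, 4 of 4 club, 3 of 6 alveolar type 2 and 3 of 5 erythroid markers. Among the smooth muscle markers, Myh11 and Des had none above 0. No marker passed after adjustment, and their part in the level of Hspb1 was not tested.

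The Hsp90 gene Hsp90aa1, the stress-inducible form of cytosolic Hsp90, was lowest in control mouse 1 and at 20 ppm. It measured 5.87, 6.60 and 6.48 in the control mice, 6.19, 5.97 and 6.06 at 20 ppm, 6.29, 6.41 and 6.38 at 500 ppm, 6.71, 6.40 and 6.87 at 2500 ppm and 6.57, 6.59 and 7.00 at 5000 ppm. All diets overlapped control, though the 20 ppm mice were each below 2 of the 3 controls. The log2 fold at 5000 ppm was 0.40 ± 0.20 (SE; 1.32-fold, 95% interval 0.97 to 1.79), 0.18 ± 0.17 without control mouse 1 and 20 ppm mouse 1, and 0.26 ± 0.22 without 5000 ppm mouse 3. Its second probe followed it (r = 0.91, rho = 0.93 over 15 mice, permutation p = 1e-05 and 2e-05, adjusted 3.7e-05 for r).

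Hspe1 and Hspd1, the mitochondrial Hsp10 and Hsp60 that share the promoter stretch shown above, varied together. Hspe1 measured 4.93, 5.80 and 5.56 in the control mice, 5.31, 5.51 and 5.68 at 20 ppm, 5.42, 5.57 and 5.58 at 500 ppm, 6.02, 5.85 and 6.10 at 2500 ppm and 5.66, 5.59 and 6.52 at 5000 ppm. The 2500 ppm mice were above all 3 controls by a small margin (8.83% of all genes were so), and the 5000 ppm mice overlapped the controls. Hspd1 measured 4.29, 4.79 and 4.54 in the control mice, 4.33, 4.60 and 4.71 at 20 ppm, 4.40, 4.50 and 4.41 at 500 ppm, 4.99, 4.65 and 4.83 at 2500 ppm and 4.77, 4.71 and 5.26 at 5000 ppm. Control mouse 1 was the lowest and 5000 ppm mouse 3 the highest mouse for both genes. The log2 folds at 5000 ppm were 0.49 ± 0.26 for Hspe1 (95% interval -0.07 to 1.06) and 0.37 ± 0.19 for Hspd1 (-0.03 to 0.78). Without control mouse 1 and 20 ppm mouse 1 they were 0.24 ± 0.25 for Hspe1 and 0.24 ± 0.18 for Hspd1, and without 5000 ppm mouse 3 they were 0.19 ± 0.23 for Hspe1 and 0.20 ± 0.19 for Hspd1.

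Counting mice that do not overlap, 1 of 10 members lay wholly above control at 20 ppm (1.5% of all genes did so), 0 at 500 ppm (4.53%), 2 at 2500 ppm (8.83%) and 2 at 5000 ppm (12.9%). None lay wholly below control at any dose, against 4.34%, 2.15%, 4.72% and 5% of all genes from low to high dose. The median log2 fold of the 10 members was -0.06, -0.18, 0.37 and 0.25 from low to high dose, against -0.03, 0.12, 0.05 and 0.07 over all genes tested, with 5, 4, 8 and 7 members above 0. Single mice weighed on these medians. Without 5000 ppm mouse 3 the median at 5000 ppm was 0.08, as over all genes (0.08), with 5 members above 0 and none at an unadjusted p under 0.05. Without 2500 ppm mouse 1 the median at 2500 ppm was 0.16, against 0.08 over all genes. The slope over dose ranks was above 0 for 9 members, with a median of 0.08 per rank against 0.03 over all genes. Without 5000 ppm mouse 3 that median was 0.03, as over all genes (0.03), with 5 members above 0 and 3 at an unadjusted p under 0.05. With all mice, the 5 members with an unadjusted p under 0.05 on the slope (2 with quantile normalization or with the array median as scale) were Hspa4l (0.15 ± 0.04, adjusted p = 0.325), Hsp90aa1 (0.14 ± 0.05, adjusted p = 0.392), Hspb1 (0.16 ± 0.05, adjusted p = 0.406), Hspe1 (0.15 ± 0.06, adjusted p = 0.486) and Hspd1 (0.10 ± 0.04, adjusted p = 0.501; log2 per rank ± SE, limma).

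**Figure D2:**
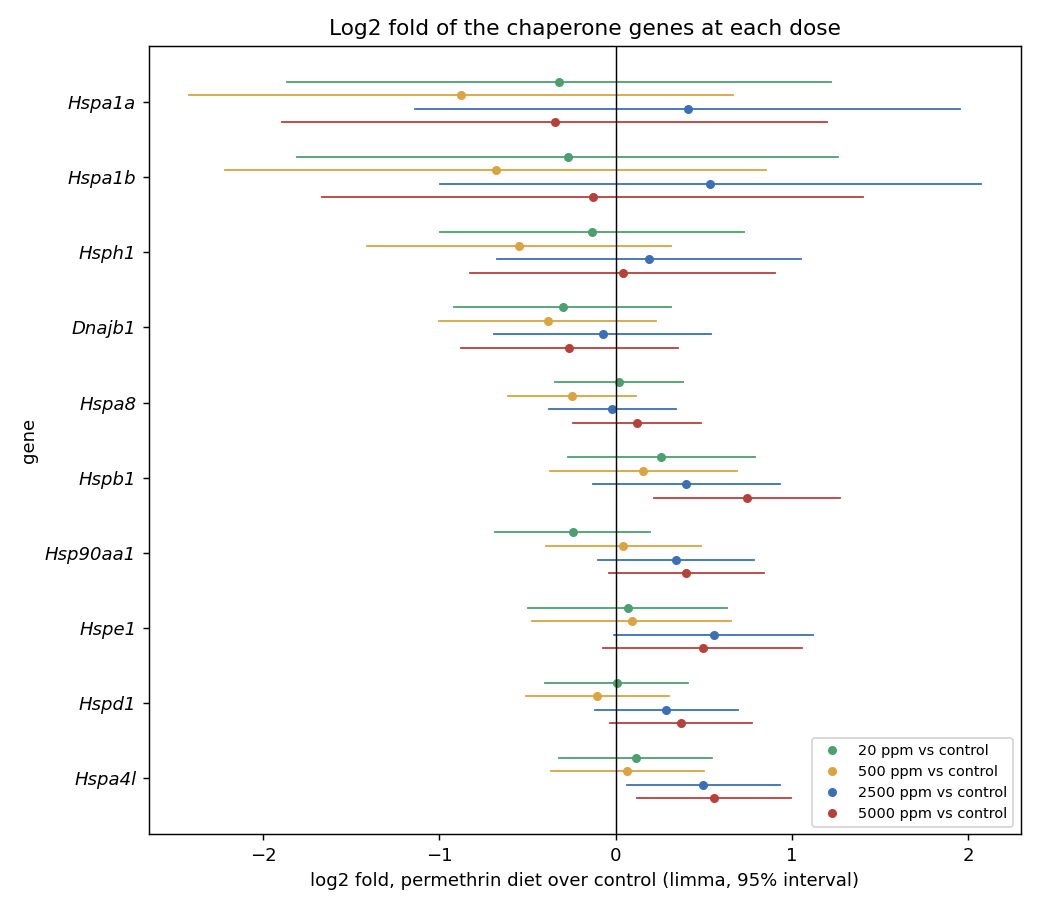
Log2 fold of each chaperone gene at 20, 500, 2500 and 5000 ppm over control (point) with its 95% interval from limma (line), for 3 mice per diet. The intervals of Hspa1a and Hspa1b are the widest, from -1.89 to 1.20 and -1.66 to 1.40 at 5000 ppm, and those of Hspb1 and Hspa4l at 5000 ppm lie above 0 before adjustment over all genes.

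Within slides the comparisons hold fewer mice. On slide 1, the 20 ppm mice differed from control by 0.26 for Hspb1 and 0.11 for Hspa4l. On slide 2, the 5000 ppm mice differed from the 2500 ppm mice by 0.35 for Hspb1 and 0.06 for Hspa4l, and from the single 500 ppm mouse on that slide by 0.43 for Hspb1 and 0.32 for Hspa4l. With the slide as a fixed block the log2 fold at 5000 ppm was 0.51 ± 0.44 for Hspb1 and 0.29 ± 0.36 for Hspa4l, and no member had an unadjusted p under 0.05. That fit sets the slides apart only by 500 ppm mouse 3 against 500 ppm mice 1 and 2. Mouse 3 is also the single 500 ppm mouse of slide 2, and the first principal component set it apart from the other arrays.

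Many of the genes were high or low in the same mice. The mean of the 10 centred levels was highest in 5000 ppm mouse 3 (0.78), 2500 ppm mouse 1 (0.59) and 2500 ppm mouse 3 (0.37), and lowest in 500 ppm mouse 1 (-0.37). Its diet means were -0.04 ± 0.27 in control mice, -0.12 ± 0.27 at 20 ppm, -0.29 ± 0.08 at 500 ppm, 0.28 ± 0.37 at 2500 ppm and 0.16 ± 0.54 at 5000 ppm (SD, n = 3 each). The 500 ppm mice were alike, the other diets were not, and 5000 ppm mouse 3 was the highest of the 15 mice for 7 of the 10 genes. The other 5000 ppm mice had means of -0.15 and -0.14, below control mouse 2 (0.24).

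**Figure D3:**
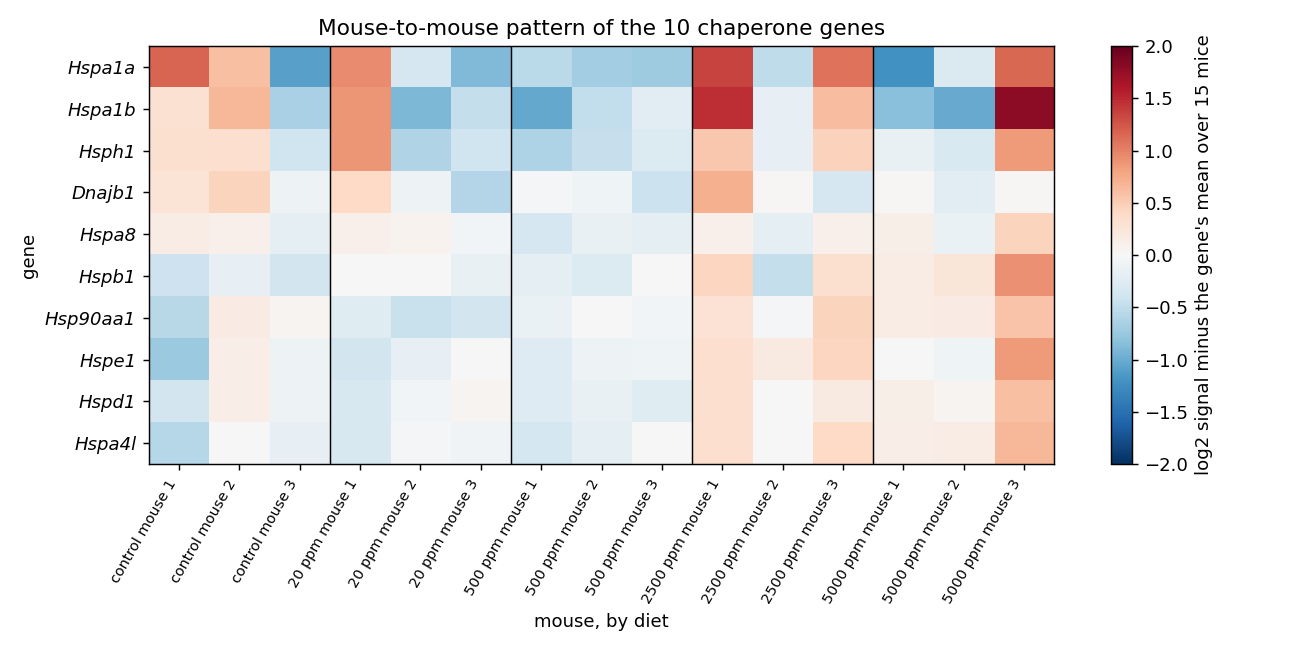
Level of each chaperone gene in each mouse minus the gene's mean over 15 mice (log2, colour), with mice ordered by diet and lines between diets. The mouse with the highest mean (0.78, 5000 ppm mouse 3) stands beside mice of -0.15 and -0.14 on the same diet.

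Of the 45 pairs of members, 43 had a positive Pearson r over the 15 mice (median 0.52), and 17 passed a permutation test of r adjusted over the 45 pairs at 0.05. The lowest r that passed was 0.65. Over all pairs of the 19268 genes with a symbol and a value on every array, 59.4% had a positive r (median 0.10) and 7.56% had an r at least that high. The points share the scaling of their arrays. With each diet's mean taken out the median r was 0.51. On slide 1 the median r was 0.09, with 27 of 45 pairs positive and 4 passing, against a median of 0.18 over all gene pairs. On slide 2 it was 0.82, with all 45 positive and 23 passing, against 0.01 over all gene pairs; the difference between slides was not tested. The inducible Hsp70 genes and Hsph1 formed one close set. Hspa1b and Hsph1 had r = 0.92 and rho = 0.88 (permutation p = 1e-05 and 5e-05, adjusted 0.00011 and 0.00075), with 0.97 on slide 1 and r = 0.92 without the 2 mice farthest from the median. Hspa1a and Hsph1 had r = 0.87 and rho = 0.65 (permutation p = 9e-05 and 0.01, adjusted 0.00058 and 0.037), and r = 0.87 without 2 mice. Hspa1a and Hspa1b had r = 0.86 and rho = 0.67 (permutation p = 5e-05 and 0.0075, adjusted 0.00038 and 0.034), and r = 0.85 without 2 mice.

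Over all 15 mice the mitochondrial pair, Hspa4l, Hsp90aa1 and Hspb1 formed the other set. The sets did not stand apart on slide 2, where Hsph1 had r = 0.95 with Hspe1 and 0.94 with Hspa4l. On slide 1 Hspb1 had only 0.30 with Hspe1 and 0.21 with Hspd1. Hspa8 was placed in neither set. It had r = 0.67, 0.72 and 0.77 with Hspa1a, Hspa1b and Hsph1, and 0.65 with Hspb1, over all 15 mice. Hspe1 and Hspd1 had r = 0.92 and rho = 0.92 (permutation p = 1e-05 for each, adjusted 0.00011 and 0.00045), with 0.89 on slide 1, 0.88 on slide 2 and 0.85 without 2 mice. Hspe1 and Hspa4l had r = 0.94 and rho = 0.88 (permutation p = 1e-05 and 5e-05, adjusted 0.00011 and 0.00075), and r = 0.86 without 2 mice. Hsp90aa1 and Hspa4l had r = 0.84 and rho = 0.80 (permutation p = 0.00017 and 0.00058, adjusted 0.00085 and 0.0043), with 0.42 on slide 1 and 0.98 on slide 2 and 0.68 without 2 mice. Hspb1 and Hsp90aa1 had r = 0.69 over all mice (permutation p = 0.0045, rho 0.60, p = 0.022, adjusted 0.013 and 0.074), but -0.13 on slide 1 and 0.87 on slide 2, so that this relation did not hold within slide 1. Dnajb1 had r between -0.07 and 0.10 with the 5 genes of the second set. With Hspa1a, Hspa1b and Hsph1 it had r = 0.59, 0.55 and 0.57 (permutation test of r, adjusted p = 0.05, 0.07 and 0.061). These were 0.83, 0.75 and 0.77 on slide 1 and 0.41, 0.49 and 0.43 on slide 2.

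**Figure D4:**
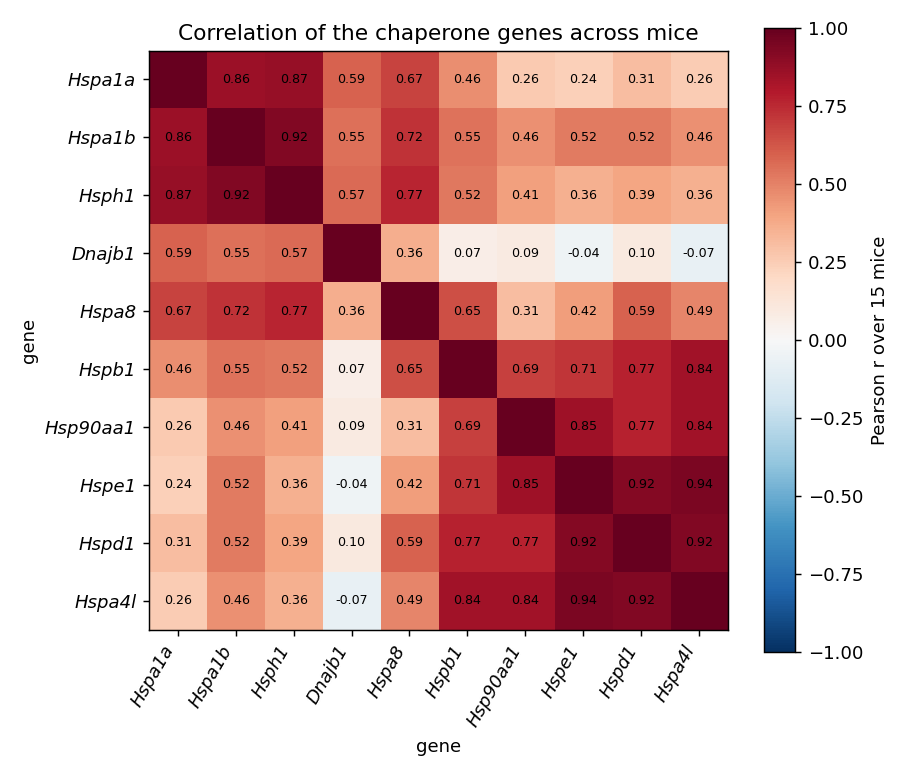
Pearson r over 15 mice for every pair of the 10 chaperone genes (colour and printed value). Hspa1a, Hspa1b and Hsph1 (0.86 to 0.92) and Hspe1, Hspd1 and Hspa4l (0.92 to 0.94) are the closest sets. Dnajb1 is near 0 (-0.04 to 0.10) with Hspe1 and Hspd1, and at 0.55 to 0.59 with Hspa1a, Hspa1b and Hsph1.

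Probes of Hspa8 and of Hspd1 differed in 2 mice. Over all 15 mice the other Hspa8 probes followed the probe used, with r = 0.89 for A_66_P137434, 0.57 for A_55_P2909278 and 0.60 for A_55_P2910890 (rho 0.87, 0.81 and 0.81; permutation test of r, adjusted p = 3.7e-05, 0.036 and 0.026 over 11 probe pairs). Control mouse 1 stood at 5.21 and 20 ppm mouse 1 at 5.19 for the Hspa8 probe A_55_P2909278, with the remaining 13 mice between 1.76 and 3.37. For A_55_P2910890 the same mice stood at 4.49 and 4.40, with the remaining 13 between 1.10 and 2.96. The probe used measured 6.54 and 6.50 in the same mice, inside the range of the others (6.06 to 6.84, median 6.34). A_66_P137434 measured 3.26 and 3.21 there, near the top of the others' range (2.28 to 3.46, median 2.63). All 4 Hspa8 probes carry the same RefSeq identifier. For Hspd1, A_55_P2846649, which carries another transcript's identifier than the probe used, measured 1.07 and 1.23 in those mice and -0.16 to 0.53 in the other 13. The probe used measured 4.29 and 4.33 there, below the 4.40 to 5.26 of the others, and the 2 Hspd1 probes had r = -0.13 (rho 0.21, permutation p = 0.65 and 0.46; adjusted 0.65 for r over 11 probe pairs). Control mouse 1 and 20 ppm mouse 1 were the same arrays that the second principal component set apart, and the part of that in the probes' difference was not tested. With A_55_P2909278 and A_55_P2910890, the log2 fold at 5000 ppm was -0.64 ± 0.82 and -0.50 ± 0.80, against 0.12 ± 0.17 for the probe used.

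**Figure D5:**
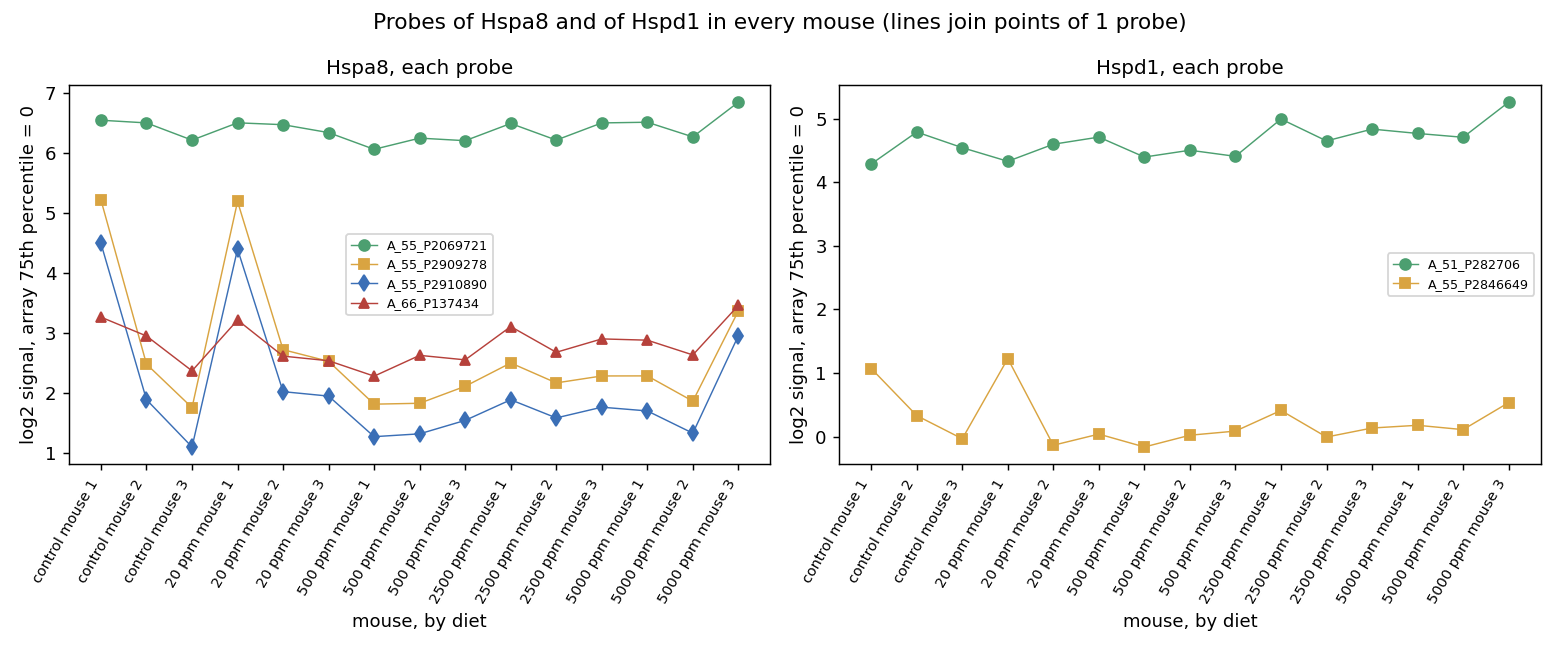
Log2 signal (array 75th percentile at 0) of each probe of Hspa8 and of Hspd1 in the 15 mice ordered by diet, with lines joining 1 probe's points. For 2 Hspa8 probes and 1 Hspd1 probe control mouse 1 and 20 ppm mouse 1 stand far above the other 13 mice, and for the probes used, A_55_P2069721 and A_51_P282706, they do not.

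Of 85 measured genes (86 listed) of the wider chaperone network, on 8 lists, 0 passed the limma test at any dose or on the trend, beside the 0.0407% and 0.142% of all genes that did. The list of other Hsp90 genes and Hsp90 co-chaperones had 11 of 14 genes above 0 at 5000 ppm, with a median log2 fold of 0.28 and 4 at an unadjusted p under 0.05, against 0.07 and 5.14% over all genes. Fkbp4, an Hsp90-binding immunophilin, had a log2 fold of 0.47 ± 0.17 (adjusted p = 0.888), Ptges3, the p23 co-chaperone, 0.47 ± 0.20 (0.928) and Hsp90ab1, the constitutive cytosolic Hsp90, 0.40 ± 0.18 (0.955). Organelle chaperones had 13 of 14 above 0 (median 0.21), led by Serpinh1, the collagen chaperone of the endoplasmic reticulum, at 0.53 ± 0.16 (adjusted p = 0.673), with Trap1, the mitochondrial Hsp90, at -0.51 ± 0.61. Trap1 was high in control mouse 1 and stood at 0.24 without it, and Hsp90ab1 was at 0.26 without that mouse, against 0.40 with it. Serpinh1, Fkbp4 and Ptges3 were at 0.35, 0.37 and 0.34 without control mouse 1. The list of HSF1 and its regulators had 7 of 9 above 0 (median 0.23). Hikeshi, which imports Hsp70 into the nucleus, measured 0.42 ± 0.18 (0.943), and Hsf1 itself 0.31 ± 0.17 (0.964). Without control mouse 1 Hikeshi was at 0.31 and Hsf1 at 0.21. The counts above 0, here and for the lists below, were not redone without that mouse. Since the median over all genes was 0.07, most genes tested were above 0 at 5000 ppm as well.

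The Hsp70 co-chaperones and exchange factors had 8 of 10 above 0 (median 0.13), with St13, an Hsp70-interacting protein, at 0.47 ± 0.19 (adjusted p = 0.928), Bag3 at 0.04 ± 0.17 (-0.08 without control mouse 1) and Bag4, on a dim probe, at -0.87 ± 0.48. St13 was at 0.37 and Bag4 at -0.60 without control mouse 1. The other J-domain proteins had 10 of 14 above 0 (median 0.16), with Dnaja4 at 0.44 ± 0.16 (adjusted p = 0.888), Dnajb5 at 0.40 ± 0.21 and Dnaja1 at -0.05 ± 0.23. These were at 0.33, 0.24 and -0.15 without control mouse 1. Other Hsp70 and Hsp110 genes had 6 of 7 above 0 (median 0.12), with Hspa2 at 0.20 ± 0.21 and the testis-type Hspa1l at -0.27 ± 0.27. The TRiC chaperonin, the cytosolic folding chamber for actin and tubulin, had 6 of 9 above 0 (median 0.05), and its Cct3 and Tcp1 were at -0.69 ± 0.86 and -0.38 ± 0.34. Without control mouse 1, the highest control for both, they were at 0.38 and 0.02. Of the other small heat shock proteins 7 of 8 were above 0 (median 0.19). Cryab was at 0.30 ± 0.20 (0.09 without control mouse 1), Cryaa, the lens crystallin on a dim probe, at 1.08 ± 0.81 and the heart-enriched Hspb7 at 0.80 ± 0.71. Cryaa and Hspb7 moved up without control mouse 1, to 1.28 and 1.05. Hspb7 ranged from -0.51 in 2500 ppm mouse 2 to 3.07 in 2500 ppm mouse 3, the same mice in which log2 of the summed signal of the cardiac muscle markers was lowest (1.73) and highest (6.86), and the part of that tissue in Hspb7's level was not tested.

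For each list, the mean of its genes' centred log2 levels, not the summed signal, was set against the mean profile of the 10 genes. The profile followed the list of other Hsp90 genes and Hsp90 co-chaperones over the 15 mice (r = 0.79, rho = 0.66, permutation p = 0.00055 and 0.0087, adjusted 0.013 and 0.066 over 24 lists). That r was 0.40 without the 2 mice farthest from the median, 5000 ppm mouse 3 and 2500 ppm mouse 1, both on slide 2. On slide 1 r was 0.65 and on slide 2 it was 0.79 (exact permutation p = 0.091 and 0.017, adjusted 0.36 and 0.27 over 24 lists). None of the other chaperone lists passed. Their r ran from -0.22 (other cytosolic Hsp70 and Hsp110) to 0.49 (organelle chaperones), with -0.12 for HSF1 and its regulators. The TRiC list had r = 0.41 and rho = 0.70 (permutation p = 0.12 and 0.005, adjusted 0.41 and 0.06). No marker list of a lung cell type, of blood or of immediate early genes passed after adjustment over the 24 lists. The B cell list had r = -0.62 (rho -0.52, permutation p = 0.014 and 0.049, adjusted 0.17 and 0.24), the alveolar macrophage list -0.57 (rho -0.65, permutation p = 0.026 and 0.011, adjusted 0.21 and 0.066) and the immediate early list -0.30. The erythroid list had r = 0.51 and the highest rho of the 24, 0.71 (permutation p = 0.053 and 0.0038, adjusted 0.25 and 0.06), with r = 0.43 on slide 1 and 0.84 on slide 2. The neutrophil list had r = -0.52 (rho -0.48, permutation p = 0.048 and 0.075, adjusted 0.25 and 0.26), with -0.97 on slide 1 (exact permutation p = 0.0031, adjusted 0.074) and -0.57 on slide 2. The part of these cells in the profile was not tested. Among genes with a symbol outside the 10, the 6 most like the profile were Ahsa2 (r = 0.91), Cacybp (0.88), BB123696 (0.84), Dnaja1 (0.83), Chordc1 (0.76) and Gm19510 (0.71), over 15 mice. Ahsa2 measured 0.78 in 500 ppm mouse 1 and 1.89 in 5000 ppm mouse 3, its lowest and highest mice, and these were also the lowest and highest mice of the profile.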

How the data were processed

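Per the labels' protocols, 100 ng of total RNA from each lung was turned into cRNA carrying Cy3 and hybridised to a 1-colour Agilent array. The file headers name Agilent Feature Extraction 10.7.3.1 as the scanner software and place the probes on mm9. The values used are the processed signal that the authors deposited for each spot, an intensity on a linear scale with background already subtracted by that software, and its calls of spots well above background. The deposited series table holds log2 values of the same arrays, which differed from log2 of the processed signal by 1 constant per array.

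Control and outlier spots were left out and spots of a probe were averaged. Each array's log2 signal was set to its 75th percentile. A probe was kept when at least 50% of its spots were well above background on all 3 arrays of at least 1 diet, leaving 43154 probes. Symbols came from RefSeq (GRCm38.p6), and the kept probe with the highest mean stood for a gene (34401 genes). limma 3.58.1 in R 4.3.3 was fitted over all 15 arrays with 1 coefficient per diet, two-sided, adjusted by Benjamini-Hochberg over all genes, and tested on simulated data. Correlations used 100000 permutations in Python 3.11.15 with scipy 1.17.1. Between 72.0% and 87.6% of spots were well above background, and the 3 arrays per diet limit the precision. The labels call the arrays of a diet biological replicates.

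The 10 genes, the lists and the rule for named genes were chosen with earlier results of these data known. That rule names every member, 2 genes per pathway list by size of the log2 fold at 5000 ppm, Hsf1, Bag3, Hsp90ab1, Cryab and Dnaja1, and the 6 genes most like the mean profile. Same-numbered mice deviated together (every r above 0.1) between control and 20 ppm (0.26 to 0.68) and between 500 and 2500 ppm (0.29 to 0.48), and the labels name no shared litter or day. Differently numbered mice reached an r of 0.46 between control and 20 ppm and 0.26 between 500 and 2500 ppm. Alternatives covered background correction, scaling, filters, probe choice, slide and replicate blocks, array weights and leaving out arrays.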

Additional observations from a re-analysis of the deposited data

How the results depend on the processing

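The count of members past the threshold stayed at 0 in all 7 comparisons under every alternative run, including each array left out in turn (0 to 0) and the replicate block, which gave 0 members in each comparison and changed no call. Of 953 alternative values of the log2 folds of the 10 members at 2500 ppm, at 5000 ppm and per dose rank, 886 kept their direction and 67 changed sign, none of them past the threshold, and the cause was not tested. The lowest adjusted p of a member over the alternatives was 0.114, for any difference among the diets. The count of all genes called at 5000 ppm was 14 and ran from 5 to 4952 over the alternatives (49 and 5 to 5494 on the trend), highest with the slide as a fixed block, where no member was called. Of those 4952 genes, 72 were higher at 5000 ppm, and that fit sets the slides apart by 500 ppm mouse 3 alone. The 17 correlated pairs became 4 on slide 1 (8 mice), 23 on slide 2 (7 mice) and 30 after quantile normalization. Leaving out control mouse 1 for genes of the pathway lists was chosen after seeing the data. Scaling to the array median moved the median of all genes at 500 ppm to -0.11, against 0.12 with the 75th percentile, and then 0 members were above 0 there, against 4.

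Values that changed sign are log2 folds over control, or slopes per dose rank. With the slide as a fixed block, Hspa1b was at -0.0080, Hsph1 at -0.073 and Dnajb1 at 0.30 at 2500 ppm, Hsph1 at -0.22 and Dnajb1 at 0.10 at 5000 ppm, and the slopes were -0.11 for Hspa1b, -0.039 for Hsph1 and 0.080 for Dnajb1. With the slide as a random block, Dnajb1 was at 0.046 at 2500 ppm, Hsph1 at -0.045 at 5000 ppm, and the slope of Dnajb1 was 0.0054. With array weights, Hspa8 was at 0.013 and Dnajb1 at 0.19 at 2500 ppm, and the slope of Dnajb1 was 0.015. Without control mouse 1 and 20 ppm mouse 1, Hspa8 was at 0.045 at 2500 ppm, Hspa1a at 0.12 at 5000 ppm and the slope of Dnajb1 was 0.00086. Without 500 ppm mouse 3 and 2500 ppm mouse 3, Dnajb1 was at 0.16 at 2500 ppm and the slope of Hspa1a was -0.018. Without all 4 of these arrays, Dnajb1 was at 0.19 at 2500 ppm, Hspa1a at 0.12 at 5000 ppm and the slope of Dnajb1 was 0.024. With quantile normalization, Hspa8 was at -0.058 and Hsph1 at -0.089 at 5000 ppm, and the slopes of Hspa1a and Hspa8 were -0.029 and -0.025; with normexp they were -0.0044 and -0.00012. With the mean of the probes, Hspa8 was at -0.22 at 5000 ppm with a slope of -0.098. By other probes, Hspa8 was at 0.035 at 2500 ppm, at -0.64 and -0.50 at 5000 ppm with slopes of -0.25 and -0.20, Hsph1 at -0.019 at 2500 ppm and -0.25 at 5000 ppm with a slope of -0.0090, and Hspd1 at -0.28 at 2500 ppm and -0.18 at 5000 ppm with a slope of -0.056.

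With each array left out in turn, log2 folds at 2500 ppm ranged from -0.24 to 0.98 for Hspa1a, -0.12 to 0.076 for Hspa8, -0.050 to 0.41 for Hsph1 and -0.36 to 0.16 for Dnajb1. At 5000 ppm they ranged from -0.998 to 0.20 for Hspa1a, -1.03 to 0.36 for Hspa1b, -0.030 to 0.26 for Hspa8 and -0.32 to 0.25 for Hsph1. Slopes ranged from -0.13 to 0.11 for Hspa1a, -0.13 to 0.15 for Hspa1b, -0.0095 to 0.048 for Hspa8 and -0.031 to 0.087 for Hsph1.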
